A study of Mus musculus with 148 samples.

Results

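CD8 T cells recognize peptides presented on MHC class I molecules and kill the presenting cell with perforin and granzymes. Granzyme K, encoded by Gzmk, is a serine protease of their granules that is typically carried by effector-memory cells, whereas naive cells hold little granzyme and keep the IL7 receptor (Il7r). In the lung, antigen-experienced CD8 T cells include circulating and tissue-resident cells, and interferon raises a common set of antiviral genes in them as in most other cells.

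The cells described here are those that the authors annotated as the T cell subpopulation CD8 Gzmk, and they were taken from the deposited cell table by the annotation alone. There were 1612 of them among 24020 annotated cells (6.71%). They made up 23.5% of the 6846 T cells and 59.5% of the 2711 CD8 T cells, the others being CD8 Gzma (375 cells), CD8 Lag3 (347) and CD8 Dapl1 (377). They came from 62 of 63 samples of 27 mice, and each sample was 1 tissue of 1 mouse, so that replicates were separate mice within a tissue status.

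All mice were female PA-GFP C57BL/6, a strain whose GFP is switched on by light, and the tumor was a single cell line, EO771-tdTomato, a mouse mammary carcinoma line carrying a red fluorescent protein. It was injected into the mammary gland at 8 weeks of age, the tumor was resected 3 weeks later, and lungs were followed by weekly CT. Lungs of mice without a tumor (Normal), lungs of tumor-bearing mice before resection (Pre-MET), lungs free of metastases after resection (Relapse-free), the primary tumor (Primary) and metastasis-bearing lungs were compared. The last were divided into distal normal tissue, the section holding the metastasis (MET), and the invasive margin and core of the metastasis (MET invasive margin and MET core), whose cells were lit under the microscope.

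Cells were sorted as CD31- CD45+, or as CD31- GFP+ where they had been lit, which was the case for MET cores, margins and part of the Relapse-free cells. The core of mouse 17, with 130 CD8 Gzmk cells, had no GFP gate. For expression, UMIs (molecules counted once each) were summed over the CD8 Gzmk cells of each sample with at least 10 of them. This left 45 sums holding 1523 cells and 2343366 UMIs, from 3 Normal, 3 Pre-MET, 5 Relapse-free, 7 distal normal, 8 MET, 5 margin, 11 core and 3 Primary samples. Sums ranged from 6742 to 333087 UMIs. The median UMIs per cell of a sum was 2451 to 3729 in Primary samples and 577.5 to 1883.5 in MET cores. Levels are in CPM, UMI counts scaled to the total of their sum, and 3 counts in a single sum corresponded to 9.01 to 445 CPM.

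The markers given for these cells were met only in part. Ccl5, the chemokine CCL5 (chromosome 11, 83525778–83530518, minus strand, mm10), was the most abundant of them, at a lowest, median and highest level of 7681, 15020 and 29919 CPM over the 45 sums. Gzmk (chromosome 13, 113171608–113225908, minus strand) was at 0, 88.1 and 754 CPM and had a UMI in 34 of the 45 sums. Cd8a, the alpha chain of the CD8 coreceptor (chromosome 6, 71373427–71379173, plus strand), had a UMI in 42 sums, with a median of 436 and a highest level of 2039 CPM.

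Gzmk was not highest in the cells named for it. Pooled over all cells, it stood at 117 CPM in CD8 Gzmk cells, 465 in CD8 Gzma, 250 in CD8 Lag3, 6.99 in CD8 Dapl1 and 1.29 in B cells. The CD8 Gzmk cells held 284 of the 842 Gzmk UMIs of all immune cells (33.7%). In samples with at least 10 cells of both subpopulations, Gzmk was lower in CD8 Gzmk than in CD8 Gzma cells in 6 of 8 samples and lower than in CD8 Lag3 cells in 5 of 7. It was higher than in CD8 Dapl1 cells in 7 of 9 samples and at 0 in both in the remaining ones.

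Counted per cell after every cell was thinned to 500 UMIs, which left out 0 cells, 4.34% of CD8 Gzmk cells had a Gzmk UMI (6.89% unthinned), against 0.0948% of B cells, with median depths of 1010.5 and 1001 UMIs. A Cd8a UMI was found in 19.04% of them (28.5% unthinned) and in 0.569% of B cells. Cd8a or Cd8b1, the CD8 beta chain, was found in 30.4%, compared with 51.2% of CD8 Gzma, 54.8% of CD8 Lag3 and 51.7% of CD8 Dapl1 cells. Ccl5 was found in 88.3% (95.3% unthinned) against 12.7% of B cells. Any of 5 T cell markers, Cd8a or Cd8b1 was found in 79.5% against 4.17%. These shares were above the B cell background, yet CD8 transcripts were detected in a smaller share of these cells than of the other CD8 subpopulations, and the name CD8 Gzmk is used below for the annotation only.

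Gzma, encoding granzyme A, stood at a pooled 231 CPM against 11460 in CD8 Gzma cells, and was lower than in CD8 Gzma cells in all 8 samples with both. Il7r was at 525 CPM against 78.1 in CD8 Gzma and 68.6 in CD8 Lag3 cells, and was higher in CD8 Gzmk cells in all 8 and all 7 samples compared. In CD8 Dapl1 cells it was at 739 CPM.

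Checkpoint and proliferation genes stood between those of the other CD8 subpopulations. Pdcd1, encoding the receptor PD-1, was at 86 CPM against 689 in CD8 Lag3, 47.2 in CD8 Gzma and 26.2 in CD8 Dapl1 cells. Havcr2 (TIM-3) was at 8.68 CPM against 213, 65.4 and 1.75, and Mki67, a proliferation marker, at 63.7 against 321, 345 and 12.2. The Mki67 value of CD8 Gzma cells was 156 without the core of mouse 17, and that of CD8 Dapl1 cells 5.53 without the margin of mouse 17. The Pdcd1 value of CD8 Dapl1 cells was 14.5 without the core of mouse 17. In CD8 Lag3 cells, Pdcd1 was at 472 and Havcr2 at 174 without the core of mouse 36. Ifng had no UMI in the 1612 cells and 4 in all immune cells. Nkg7, a cytotoxic granule gene, was at 4851 CPM, between CD8 Dapl1 (4001) and CD8 Gzma cells (8758). These are descriptions of cells that were clustered on the same genes, and no test was made.

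**Figure D1:**
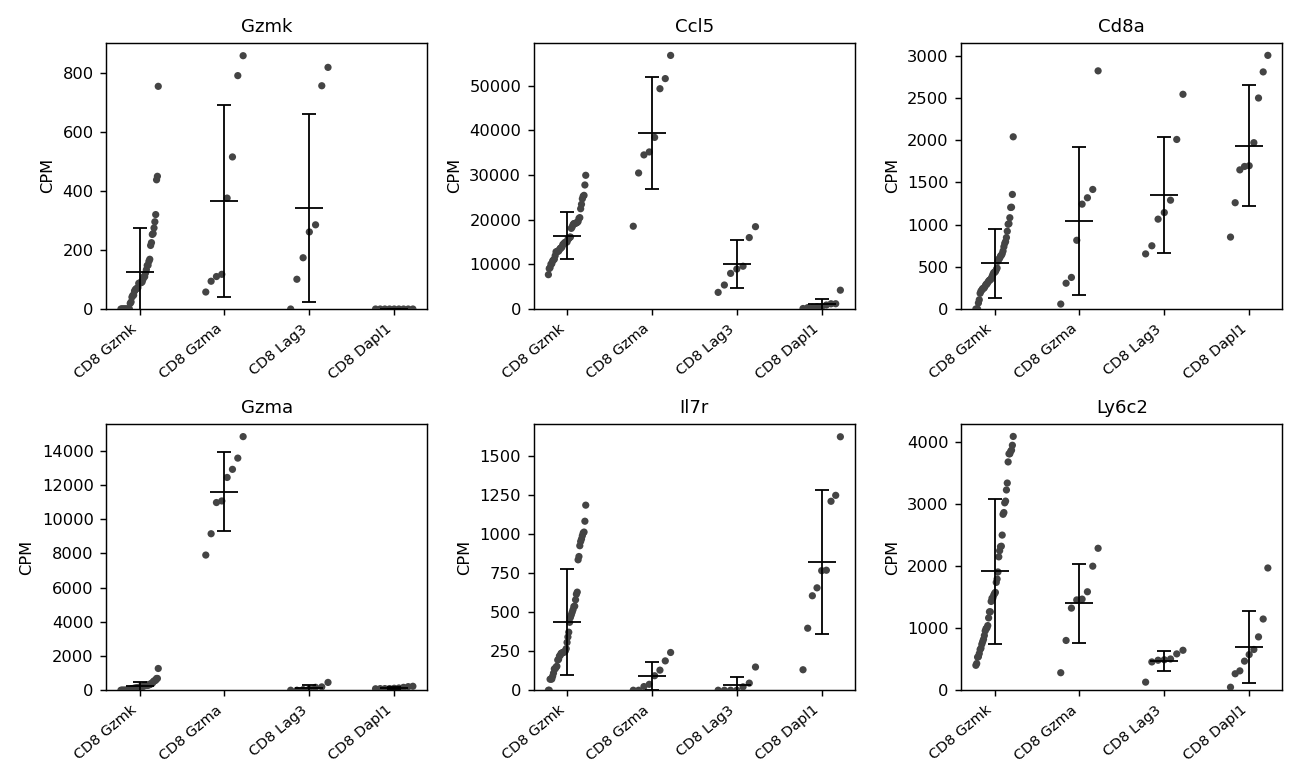
Level in CPM (y axis) of Gzmk, Ccl5, Cd8a, Gzma, Il7r and Ly6c2 in the 4 CD8 subpopulations (x axis), with 1 point per sample of at least 10 cells, a horizontal line at the mean and bars of 1 SD. Gzmk averaged 125 CPM in 45 CD8 Gzmk sums, 365 in 8 CD8 Gzma sums and 342 in 7 CD8 Lag3 sums.

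Each of the 45 sums was set against the other CD8 subpopulations pooled over all samples. The 15 genes that led the cells over the mean of these, by the median log2 ratio of CPM + 10, had ratios of 0.67 to 1.09, where the median of the 3576 genes at 50 CPM or more was −0.42. They included the NK receptor gene Klrb1c (0.93), Gpr183, encoding an oxysterol receptor that guides lymphocyte migration (0.91), and Cd7, a T and NK cell surface receptor (0.81). The gamma delta T cell receptor constant gene Tcrg-C1 (0.77), the AP-1 factor gene Jun (0.77), Ly6c2, an antigen of memory CD8 T cells (0.71), and Il2rb, the beta chain of the IL2 and IL15 receptors (0.67), followed. The others were 1700025G04Rik (1.09), Wdr45b (0.81), Abi1 (0.75), Suclg1 (0.73), Rnf114 (0.73), Dennd4a (0.70) and the pseudogenes Gm12191 (0.77) and Gm12691 (0.75), whose reads may be shared with near-identical copies.

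The lead of each gene was uneven, and the pooled values mix tissue statuses, since 44.8% of CD8 Gzma cells came from Relapse-free and 17.6% from Normal lungs, and 52.4% of CD8 Lag3 cells from MET cores. Ly6c2 was above all 3 pooled values in 27 of 45 sums, Rnf114 in 32, Klrb1c in 22 and Il2rb in 18. Within samples, 11 of the 15 leading genes were higher and 1 lower than in CD8 Gzma cells in most samples. Beside CD8 Lag3 cells 14 were higher and 1 lower, and beside CD8 Dapl1 cells 14 and 0. The genes had been chosen on the same sums, and the order was not the same for every gene. Ly6c2 was lower in CD8 Gzmk than in CD8 Gzma cells in 6 of 8 samples and higher than in CD8 Lag3 cells in 7 of 7, and Il2rb was lower than in CD8 Lag3 cells in 5 of 7. Klrb1c was higher than in CD8 Gzma cells in 4 of 8 samples. The NK cell marker list was at 0, 1285 and 3844 summed CPM (lowest, median, highest) and the gamma delta and innate-like T cell list at 0, 320 and 1599, against 0, 1084 and 2579 for the pair of CD8 genes. The CD4 list reached 328. Markers of B cells reached 939, of neutrophils 5062, of monocytes and macrophages 1105 and of dendritic cells 1373, with the dendritic cell markers Flt3 and Siglech at 0 in every sum. Their part in the results below was not tested.

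The share of T cells that were CD8 Gzmk cells was computed in the 54 samples with at least 20 T cells. It was lowest in Pre-MET lungs at 12.4% ± 1.21 (SD, n = 3), with 11.2%, 12.2% and 13.6% in the single lungs, and was 15.8% ± 3.56 in Relapse-free lungs (n = 6) and 16.02% ± 2.26 in Primary tumors (n = 4). Normal lungs stood at 18.96% ± 0.564 (n = 3), at 18.3%, 19.2% and 19.3%. Distal normal tissue was at 25.0% ± 5.34 (n = 11), MET at 27.7% ± 5.66 (n = 9), MET cores at 35.1% ± 9.64 (n = 12) and margins at 37.0% ± 7.62 (n = 6). Neighbors in this order overlapped, except that every Primary tumor (18.2% at most) was below every Normal lung (18.3% at least). Single shares rested on few cells. The highest, the core of mouse 28, was 59.0% of 117 T cells (95% exact Clopper-Pearson interval 49.5% to 68.0%), and the lowest core, of mouse 31, 22.5% of 71 (13.5% to 34.0%), intervals that cover counting error only.

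Primary tumors and MET cores did not overlap, at 13.2%, 15.2%, 17.4% and 18.2% against 22.5%, 33.3% and 59.0% (lowest, median and highest core). The difference was 19.1 percentage points (two-sided exact permutation test p = 0.0011, adjusted over 7 comparisons 0.00769, n = 4 and 12), and 19.04 in the 1 batch that held both, with 1 tumor and 2 cores. MET cores were 10.1 points above distal normal tissue (permutation test p = 0.00313, adjusted 0.011). Cores, except that of mouse 17, were sorted as GFP+, whereas Primary tumors and distal normal tissue were not. Outside mouse 17, status and sorting gate cannot be told apart in these comparisons. In cells of 1000 or more UMIs, with 4 Primary, 3 distal normal and 4 core samples left, neither difference passed, at 20.2 and 17.2 points (exact permutation tests, adjusted p = 0.35 and 0.4). With so few samples their exact permutation p cannot go below 0.0286, so that neither could pass after adjustment over 7 comparisons. Within the 4 batches that held both tissues, the difference was 5.81, 10.6, 11.0 and 19.4 points, the last from mouse 17 alone. Within mice with both, the core was higher by a mean of 9.20 points and in 9 of 10 mice (exact sign-flip permutation p = 0.0176, adjusted over the paired comparisons alone 0.0527).

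The other comparisons did not pass. Differences are the status named second minus the one named first. Normal and Pre-MET lungs did not overlap and differed by −6.61 points, where 3 against 3 samples cannot go below an exact permutation p of 0.1, the value reached (adjusted 0.175). In cells of 1000 or more UMIs this difference was −1.16 points (exact permutation p = 0.7). Distal normal tissue and MET differed by 2.76 points (permutation p = 0.28, adjusted 0.326), and by 3.04, 5.76 and 12.9 points within the 3 batches that held both. Margin and core differed by −1.91 points (exact permutation p = 0.686, adjusted 0.686), and by −10.9, −3.62, −0.106 and 6.78 points within 4 batches. Normal and Relapse-free lungs differed by −3.11 points (exact permutation p = 0.19, adjusted 0.267). Normal lungs and distal normal tissue differed by 6.03 points (exact permutation p = 0.0824, adjusted 0.175).

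**Figure D2:**
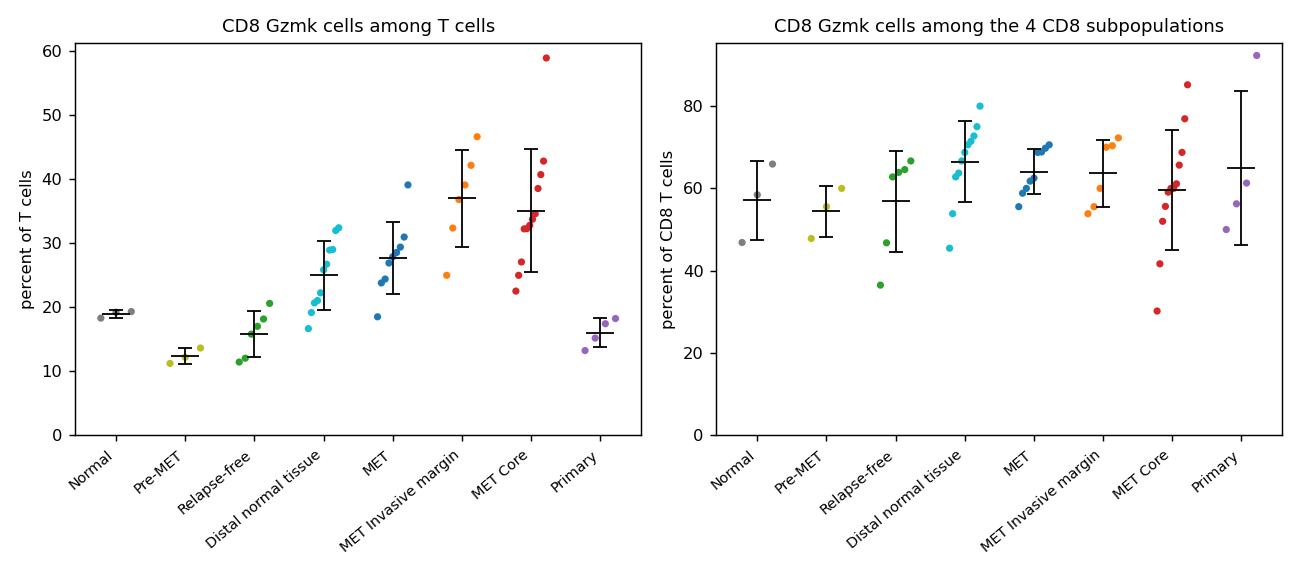
CD8 Gzmk cells as a percentage of T cells (left) and of the 4 CD8 subpopulations together (right) in each tissue status (x axis), with 1 point per sample of at least 20 T cells, a horizontal line at the mean and bars of 1 SD. The share of T cells runs from a mean of 12.4% in Pre-MET lungs to 37.0% in margins, whereas the share of CD8 T cells averages between 54.5% and 66.5% in every status.

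The step between statuses depended on the denominator. Among CD8 T cells, the share of CD8 Gzmk cells was 57.1% ± 9.61 in Normal lungs, 54.5% ± 6.16 in Pre-MET, 66.5% ± 9.82 in distal normal tissue, 59.7% ± 14.6 in MET cores and 65.0% ± 18.8 in Primary tumors. On that scale the cores differed from Primary tumors by −5.28 points (exact permutation test, adjusted p = 0.798) and from distal normal tissue by −6.77 points (permutation test, adjusted p = 0.74). All CD8 T cells together, a measure added after seeing the data, were 25.9% ± 6.80 of T cells in Primary tumors and 59.4% ± 8.43 in cores, 33.5 points apart (exact permutation test, adjusted p = 0.00192). Against distal normal tissue the difference was 21.8 points (permutation test, adjusted p = 0.00014). As a percentage of immune cells, CD8 Gzmk cells were 8.44 points higher in cores than in Primary tumors (exact permutation test, adjusted p = 0.0365) and 6.31 points higher than in distal normal tissue (permutation test, adjusted p = 0.0279).

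Gene expression within CD8 Gzmk cells was compared between statuses for 1069 genes with edgeR's quasi-likelihood test, and 0 genes passed at an adjusted p under 0.05 in any of the 7 comparisons. The lowest adjusted p was 0.0927 between Primary and MET core, 0.0518 between Normal and distal normal tissue, 0.12 between Normal and Pre-MET, and 0.769 or more in the others. At an unadjusted p under 0.05 there were 162 genes (15.2%) between Primary and MET core, 128 (12%) between Normal and Pre-MET, and 133 (12.4%) between Normal and distal normal tissue. There were 41 (3.84%) between distal normal tissue and core, 38 (3.55%) between distal normal tissue and MET, 36 (3.37%) between Normal and Relapse-free and 16 (1.5%) between margin and core. DESeq2 called 20 genes between Primary and core, 16 between Normal and distal normal tissue and 0 in the others.

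The genes below are therefore given as levels and estimates, none of which passed the test. Gene lists are described by how many members were under an unadjusted p of 0.05 and by their median, beside the same over all genes. The filter on low counts kept genes with enough counts in as few sums as the smallest status held. Members high in a single status could thus be tested, and list counts and signs are not independent of that filter. Counts with a sum left out are given without the share of all genes in that fit. Where levels are said not to overlap, the share of all genes without overlap is not given. Ms4a4b, Txnip, Cep85 and Id2 were named after their values were seen, as were members beyond the first 4 of their list, such as Ifit3, Irf7 and Cst7.

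The interferon-stimulated genes Ifit3, Isg15 and Irf7 had their highest means in CD8 Gzmk cells of Primary tumors. Ifit3, an antiviral protein gene (chromosome 19, 34583531–34588731), was at 1203, 811 and 1024 CPM in the 3 Primary tumors and at 0, 144 and 1015 CPM in cores (lowest, median and highest). In margins it was at 42.4, 350, 421, 683 and 453 CPM, in distal normal tissue at 0, 48.4 and 269, and in MET at 0, 84.6 and 242. Every Normal and Pre-MET sum was at 0, with group floors of 18.6 and 77.3 CPM for 3 counts. Only sums of cores reached the lowest Primary tumor. The difference between Primary and core was −1.70 ± 0.70 (log2 ± SE, adjusted p = 0.222, edgeR).

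Isg15, encoding a ubiquitin-like interferon-induced protein (chromosome 4, 156199424–156200818), followed a similar order. It was at 510, 435 and 703 CPM in Primary tumors, at 0, 150 and 527 CPM in cores, and at 0 in every Normal and Pre-MET sum. In distal normal tissue the lowest, median and highest were 0, 48.4 and 1165 CPM, and the highest was mouse 37, far above the others. Between Primary and core the log2 difference was −1.98 ± 0.84 (adjusted p = 0.246, edgeR). Between Normal and distal normal tissue the adjusted p was 0.0809, and 0.392 without mouse 37.

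Irf7, an interferon regulatory factor gene, averaged 636 CPM ± 218 (SD, n = 3) in Primary tumors and 197 ± 139 (n = 11) in cores.

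Per cell, after thinning to 500 UMIs, an Ifit3 UMI was found in 23.9% of CD8 Gzmk cells of Primary tumors (46.3% unthinned, median depth 2877 UMIs) and in 15.0% of those of MET cores (20.9%, 979 UMIs). The share was 8.38% in margins, 5.11% in MET, 3.19% in distal normal tissue and 2.27% in Relapse-free lungs. It was 0 of 155 Normal cells and 0 of 36 Pre-MET cells, pooled over mice, which allow shares of cells with a UMI of up to 1.94% and 8.33% from counting error alone. In Primary tumors the depth per cell was higher than in every other status and the expression sums came from 1 sequencing batch that held no other sum, so status, depth and batch cannot be told apart there.

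Of the 45 genes of the type I interferon response list, 24 were tested. Between Primary and MET core, 8 of the 24 were lower in cores and 0 higher at an unadjusted p under 0.05, beside 7.39% of all genes lower. They included Ifi203, Ifit3, Irf7, Isg15, Phf11b, Samd9l and Trim30a. All 24 estimates were below 0, with a median of −1.09 against −0.11 over all genes. Members could pass the filter through Primary sums alone, so that these signs and the count were not independent of the filter. The count was 3 without Primary mouse 9, with a median of −1.06, 5 without Primary mouse 38, and 2 of 40 tested members in cells of 1000 or more UMIs, with a median of −0.51 against 0.17 over all genes. Summed over the list, levels were 17702, 22041 and 23794 CPM in Primary tumors and 1776, 8551 and 21471 CPM in cores, and 2 cores (mice 25 and 28, the latter at 18667) lay within the Primary range.

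In distal normal tissue against Normal lungs, 7 of the 24 members were higher (6.55% of all genes) and 0 lower (5.89% of all genes), with a median of 1.16 against 0.00. Without distal normal tissue of mouse 37 there were 3, with a median of 0.62, and without Normal mouse 2 also 3. That sum alone reached 21470 CPM over the list, where the other distal normal sums lay between 1802 and 10231. The same sum also bore on distal normal tissue against MET core. There, 5 members were higher in cores (2.15% of all genes) and 0 lower (1.68%), with a median of 0.60 against 0.02, and 11 members with a median of 1.23 when mouse 37 was left out of distal normal tissue. Without other single sums the count was between 1 (distal normal mouse 28) and 8 (core mouse 26 or 32). It was 2 without distal normal mouse 27 or 34 and 3 without distal normal mouse 30 or 36 or core mouse 17, 28 or 37.

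The other comparisons held fewer such members. In Relapse-free against Normal lungs, 4 of 24 were higher (3.27% of all genes) and 0 lower (0.0935%), with a median of 0.73 against 0.06 over all genes. Without Normal mouse 2, 2 were higher. In Pre-MET against Normal lungs, 2 were higher (1.87% of all genes) and 1 lower (10.1%), with a median of −0.10 against −0.30 over all genes. The list's median was 0.00 with the 6 members at 0 in either status set at their bound of 3 counts. Without Pre-MET mouse 9 or 10, 1 or 0 were higher. Between distal normal tissue and MET, 0 members were higher (1.4% of all genes) or lower, and between margin and core 0 were higher (0.561% of all genes) or lower (0.935%).

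**Figure D3:**
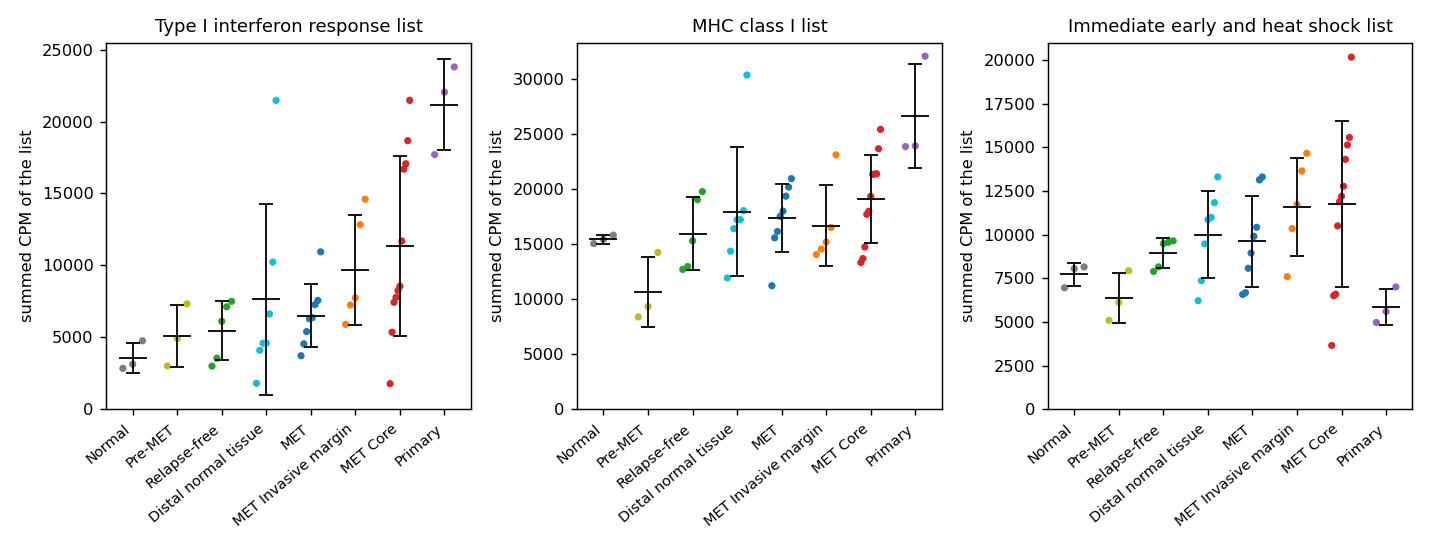
Summed CPM (y axis) of the type I interferon response, MHC class I and immediate early gene lists in CD8 Gzmk cells by tissue status (x axis), with 1 point per sample of at least 10 cells, a horizontal line at the mean and bars of 1 SD. For the interferon list the 3 Primary tumors lie between 17702 and 23794, and 1 distal normal sample, of mouse 37, lies at 21470 above all others of its status.

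MHC class I genes encode the molecules that present peptides to CD8 T cells. Their summed level was lowest in 2 Pre-MET lungs, at 8393 and 9338 CPM. The third Pre-MET lung was at 14260 CPM, above the lowest MET sum (11234). H2-D1, a classical class I heavy chain, was at 639, 1406 and 1845 CPM in Pre-MET lungs and at 2617, 2888 and 3305 CPM in Normal lungs, without overlap (log2 −1.44 ± 0.47, adjusted p = 0.215, edgeR). H2-K1, the other classical heavy chain, was at 912, 1342 and 1707 CPM against 2545, 2551 and 2751 CPM (−1.28 ± 0.51, adjusted p = 0.339, edgeR). Of 11 members tested among 19, 2 were lower in Pre-MET (10.1% of all genes lower) and the median was −1.15 against −0.30. Without Pre-MET mouse 8 there were 5 lower, and counts without the other single sums are not given here. Pre-MET sums were small, at 9958 to 17884 UMIs each. Between the same lungs, the summed neutrophil markers were at 248 to 355 CPM in Normal and 703 to 783 in Pre-MET, and dendritic cell markers at 453 to 821 and 91.2 to 280, neither with overlap. With 3 against 3 sums, groups that do not differ fail to overlap with a probability of 0.1.

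Between Primary and MET core, 5 of the 11 were lower in cores at an unadjusted p under 0.05 (7.39% of all genes) and 0 higher (7.76%), with a median of −0.71 against −0.11. H2-K1 averaged 5011 CPM ± 1738 (SD, n = 3) in Primary tumors and 3054 ± 867 (n = 11) in cores (−1.01 ± 0.36, adjusted p = 0.137, edgeR). The count of 5 was 1 without Primary mouse 9, 2 without core mouse 17 or 28, 3 without core mouse 25, 26, 27, 32 or 34, and 0 of 19 in cells of 1000 or more UMIs, with a median of −0.06.

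Immediate early genes ran the other way between Primary and MET core. Fos, the AP-1 factor gene (chromosome 12, 85473890–85477273), was at 328, 0 and 202 CPM in Primary tumors and at 39.7, 875 and 2153 CPM in cores (lowest, median and highest), so that the groups overlapped. It was at 798, 467, 926, 1252 and 822 CPM in margins, at 669, 406 and 421 in Normal lungs and at 201, 55.9 and 0 in Pre-MET lungs. Its Pre-MET levels were each under 3 counts, which corresponded to 301, 168 and 274 CPM in those sums. The log2 difference was 2.14 ± 0.67 between Primary and core (adjusted p = 0.106, edgeR; 1.61 to 2.93 with single sums left out, the highest without Primary mouse 9), 1.55 ± 0.49 between distal normal tissue and core (0.981) and −2.91 ± 1.06 between Normal and Pre-MET (0.262). With mouse as a block in the 7 mice that had both, Fos was higher in core than in distal normal tissue, by 1.80 (log2, adjusted p = 0.0121, edgeR). Cores, except that of mouse 17, were sorted as GFP+, whereas distal normal tissue was not. Outside mouse 17, status and sorting gate cannot be told apart there.

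Per cell and thinned, Fos was found in 25.3% of CD8 Gzmk cells of cores and 1.49% of those of Primary tumors (7.46% unthinned), beside 19.2% of B cells. Of 34 immediate early and heat shock genes, 17 were tested, and 3 (Fos, Jund and Ppp1r15a) were higher in cores than in Primary tumors (7.76% of all genes higher). The list's median was 0.76 against −0.11 over all genes, with 16 members above 0. Summed over the list, Primary tumors were at 4969, 5597 and 7002 CPM and cores at 3651, 12192 and 20162 CPM. In the same sums, neutrophil markers were at 0, 0 and 57.9 CPM in Primary tumors and at 30.9, 215 and 1930 CPM in cores (lowest, median and highest). Endothelial and stromal markers were at 95.3, 164 and 203 CPM and at 0, 0 and 105 CPM, and the part of either was not tested. Jun, among the leading genes, was at 0 in every Pre-MET sum and at a median of 253 CPM in margins, 127 in cores and 0 in Normal lungs. Lung and tumor tissue were dissociated with different programs, so that tissue and program cannot be told apart.

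No cytotoxic granule gene passed the test between Normal and Pre-MET lungs (lowest adjusted p = 0.195, edgeR). Gzma was at 0 in the 3 Pre-MET sums and at 210, 266 and 328 CPM in Normal lungs, at least 3.47-fold lower against the floor of 3 counts (adjusted p = 0.215, edgeR). Cst7, encoding cystatin F, an inhibitor of granule proteases, was also at 0 in the 3 Pre-MET sums and at 229, 297 and 421 CPM in Normal lungs. Of the 7 cytotoxic granule genes tested among 17, 3 were lower in Pre-MET at an unadjusted p under 0.05 (Cst7, Gzma and Nkg7, 10.1% of all genes), with a median of −1.55 against −0.30. Leaving out Pre-MET mouse 8 gave 5 lower, and counts without the other single sums are not given here. Gzmb, encoding granzyme B, did not share this direction, at 201, 559 and 639 CPM in Pre-MET lungs and 111, 134 and 312 CPM in Normal lungs. The neutrophil and dendritic cell marker sums that differed between these lungs are given above, and their part was not tested.

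Gzmb had its highest mean in Primary tumors, although the highest single sum, 2376 CPM, was of distal normal tissue. It was at 881, 1188 and 1568 CPM in the tumors, against 144, 415 and 952 CPM in cores (lowest, median and highest), with 1 tumor within the core range (log2 −1.29 ± 0.57, adjusted p = 0.264, edgeR). The killer cell receptor list, of receptors shared with NK cells, had 4 of 9 tested members lower in cores than in Primary tumors (7.39% of all genes) and a median of −1.12 against −0.11 for all genes. The count was 1 without Primary mouse 9, Primary mouse 38 or core mouse 25, and 2 without core mouse 34, 36 or 37. The NK cell markers summed to 797, 1823 and 2084 CPM in Primary tumors and to 320, 595 and 3844 CPM in cores (lowest, median and highest), and their part was not tested. Klrk1, encoding NKG2D, was at 652, 1179 and 1203 CPM in Primary tumors and at 0, 476 and 1055 CPM in cores (−1.35 ± 0.53, adjusted p = 0.203, edgeR), with overlap.

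Of the given markers, Gzmk itself was at 19.1, 46.8 and 133 CPM in Normal lungs, at 100, 0 and 0 in Pre-MET lungs and at 438, 86.9 and 23.8 CPM in Primary tumors, where single sums differed more than statuses. Ccl5 was at 9261, 9039 and 7681 CPM in Primary tumors, below every other sum, the lowest of which was 10039 CPM in the core of mouse 17. Normal lungs were at 25428, 25243 and 24663 CPM. The log2 difference in Ccl5 between Primary and core was 0.43 ± 0.31 (adjusted p = 0.539, edgeR). Cd8a was at 1356, 1202 and 798 CPM in Normal lungs and from 0 to 777 CPM in distal normal tissue, without overlap (−1.52 ± 0.60, adjusted p = 0.245, edgeR).

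Ly6c2 was low in lungs without metastases, at 993, 656 and 821 CPM in Normal and 402, 783 and 1003 CPM in Pre-MET lungs. The 5 Relapse-free sums were between 533 and 1264 CPM. It was at 3810, 3810 and 3227 CPM in Primary tumors and at 591, 2321 and 4090 CPM in cores (−0.89 ± 0.40, adjusted p = 0.272, edgeR). Thinned per cell, a Ly6c2 UMI was found in 11.1% of CD8 Gzmk cells of Pre-MET lungs, 18.1% of Relapse-free, 21.9% of Normal, 35.6% of distal normal, 41.5% of MET, 42.4% of margin, 43.0% of core and 71.6% of Primary cells.

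The genes with the lowest p between Primary and MET core were not members of the interferon list. Ms4a4b and Txnip shared the lowest adjusted p with Gm37486 and the ribosomal pseudogene Rps19-ps11, both higher in cores (log2 1.59 and 2.10). Gm42418, Rps19-ps3 and Rps19-ps7 came next. Ms4a4b, a membrane-spanning gene of T cells (chromosome 19, 11443553–11467055), was at 6016, 4230 and 4728 CPM in Primary tumors and at 412, 1984 and 3692 CPM in cores, without overlap (log2 −1.69 ± 0.41, adjusted p = 0.0927, edgeR). Txnip, encoding a thioredoxin-binding inhibitor of glucose uptake (chromosome 3, 96557957–96561883), was at 620, 1072 and 262 CPM in Primary tumors and at 0, 144 and 410 CPM in cores (−1.94 ± 0.50, adjusted p = 0.0927, edgeR). With single sums left out this was −2.28 to −1.35, the smallest without Primary mouse 10. It was at 544, 467, 337, 341 and 695 CPM in margins, overlapping with cores (−1.40 ± 0.46 in core against margin, adjusted p = 0.999, edgeR). Treg markers were summed at 565 to 846 CPM in Primary sums and 0 to 410 in cores, mostly Ikzf2, with Foxp3 at 72.9 CPM in 1 Primary sum and 0 in the other two.

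In distal normal tissue against Normal lungs, Cep85, a centrosomal protein gene, had the lowest adjusted p (0.0518, edgeR), with 19.1, 0 and 0 CPM in Normal lungs and 96.8 to 487 CPM in distal normal tissue. Gm4149, Gm29216, Myl6 and AC158620.2 followed (each at an adjusted p of 0.0718, edgeR). Id2, encoding a transcriptional regulator of effector CD8 T cells, was at 573, 1264 and 865 CPM in Normal lungs and at 201, 168 and 91.2 CPM in Pre-MET lungs, without overlap (−2.83 ± 0.75, adjusted p = 0.125, edgeR). In these Pre-MET sums 3 counts corresponded to 301, 168 and 274 CPM, so that each Id2 level there rested on 3 counts or fewer. The 9 Normal plates were sequenced in a batch of their own, so that status and batch cannot be told apart in comparisons with Normal lungs.

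**Figure D4:**
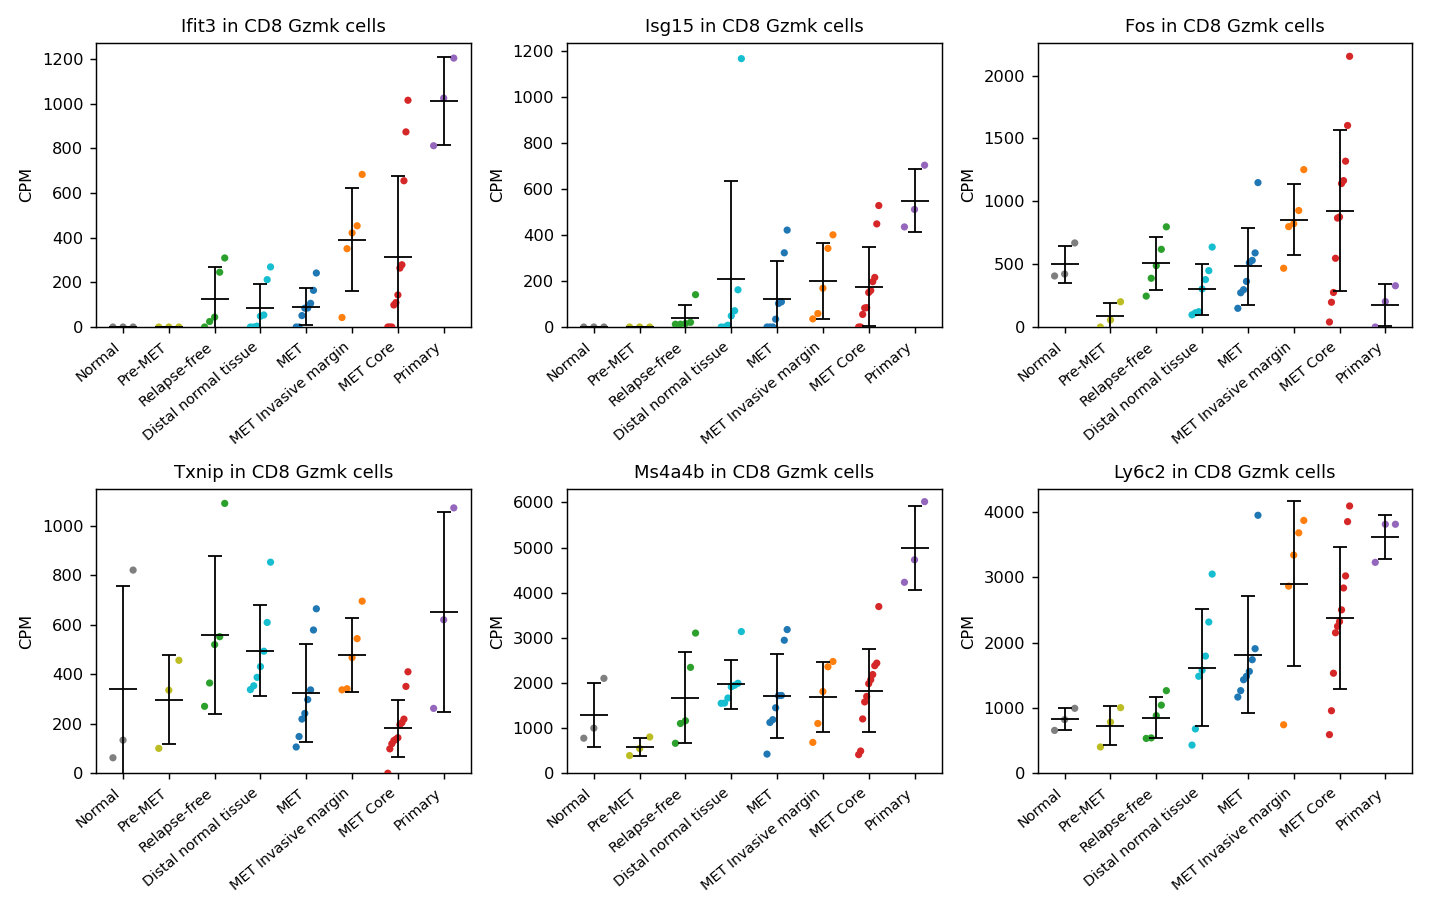
Level in CPM (y axis) of Ifit3, Isg15, Fos, Txnip, Ms4a4b and Ly6c2 in CD8 Gzmk cells by tissue status (x axis), with 1 point per sample of at least 10 cells, a horizontal line at the mean and bars of 1 SD. Ifit3 is at 0 in all Normal and Pre-MET lungs and at 811 CPM or more in Primary tumors, and the Ms4a4b levels of the 3 Primary tumors lie above those of all cores.

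Of 26 chemokine, cytokine and trafficking receptor genes, 11 were tested. All 11 estimates were below 0 from Primary to core, with a median of −0.86 against −0.11 for all genes, and 2 were lower at an unadjusted p under 0.05 (7.39% of all genes) and 0 higher (7.76%). Cxcr6, encoding a chemokine receptor of resident T cells, was 1 of these, at −1.40 ± 0.60 (adjusted p = 0.251, edgeR). From distal normal tissue to core the list's median was −0.54 against 0.02.

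Only 2 of 18 checkpoint and dysfunction genes, 2 of 34 cell cycle genes and 4 of 21 transcription factor genes passed the filter on low counts. Reads with several mapping positions had been excluded, so low counts of a gene need not mean low expression. Of 11 naive and memory genes tested, 1 was higher (7.76% of all genes) and 1 lower (7.39%) in cores than in Primary tumors, with a median of −0.77 against −0.11. The 16 T cell receptor and coreceptor genes and the 26 nuclear oxidative phosphorylation genes had medians within 0.40 of that of all genes in every comparison. Of 4 glycolysis genes tested, Aldoa and Pkm were higher in distal normal tissue than in Normal lungs at an unadjusted p under 0.05 (6.55% of all genes), with a list median of 1.19 against 0.00.

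**Figure D5:**
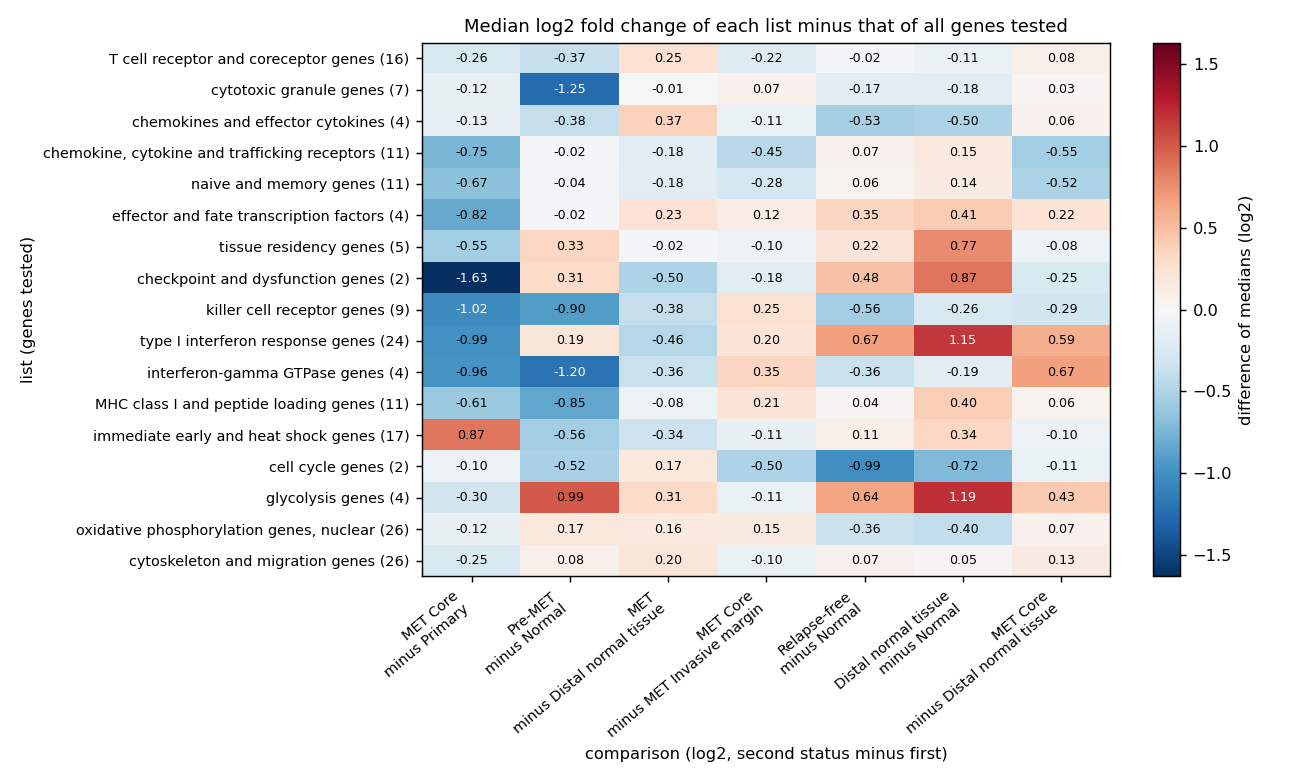
Median log2 fold change of each gene list (rows, with the number of genes tested) minus the median of all 1069 genes tested, for the 7 comparisons (columns), with blue below 0 and red above. The interferon list is at −0.99 for MET core minus Primary and 1.15 for distal normal tissue minus Normal, and the immediate early list at 0.87 for MET core minus Primary.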

How the data were processed

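Each cell occupied 1 well of a 384-well plate and was profiled by SPID-seq, a 3′ method with UMIs. The authors demultiplexed reads with bcl2fastq 2.15.0.4, mapped them to mm10 with HISAT, excluded reads with several mapping positions and deposited UMI counts per gene and well without normalization. They discarded cells under 500 UMIs, grouped the rest into metacells, clustered these with manual adjustment and named the clusters from marker genes, and cells were not clustered again here. The authors assigned reads to exons with the UCSC genome browser as reference, whose version was not given in the sources used here. Gene positions are from GENCODE vM21.

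Of 56832 wells, 24020 were annotated, each 1 time, and 595 erythrocyte, outlier or tumor cells were left out of the immune total. Members were chosen by annotation, and both the members and the gene lists were chosen with earlier results of these data known. Counts were summed per mouse and status (10 or more cells) and fitted over all statuses with edgeR 4.0.16 (quasi-likelihood F test after TMM scaling and the filterByExpr filter, p-values adjusted by Benjamini and Hochberg over 1069 genes, common dispersion 0.295) and limma 3.58.1 under R 4.3.3, with DESeq2 1.42.0 as an alternative. Cells are not replicates, so sums per mouse replaced the pooled-cell test of the study. Shares used samples with 20 or more T cells and two-sided permutation tests (exact, or 100000 resamples). Tables and figures used Python 3.11.15, numpy 2.4.6, pandas 2.3.3, scipy 1.17.1 and matplotlib 3.10.9.

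Named with values were Gzmk, Ccl5, Cd8a, the 15 leading genes, up to 8 rises and 8 falls among called genes (none here), and up to 4 members of a list in written order. Exceptions are stated in the text. Mouse numbers in the labels pair tissues of the same animal. After removal of status means, both tissues of a mouse correlated at a median of 0.202 (distal normal tissue and MET, 5 mice), 0.178 (distal normal tissue and core, 7) and 0.364 (margin and core, 4). Tested on simulated data with 200 genes changed, the fit recovered 75% of genes changed 4-fold in the simulation of Primary against core (886 genes), 46.7% in Normal against Pre-MET (919) and 84.4% in distal normal tissue against core (868). Alternatives were another tool, other scaling and filters, other cell and UMI minimums, fits on 2 statuses, each sample left out, the mouse as a block and other denominators. Results for some genes are not reported here, and list counts include them.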

Additional observations from a re-analysis of the deposited data

Results flagged for a closer look

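Among 44 groups of 4 to 10 samples, 7 held a highest sample whose distance to the next exceeded Dixon's 95% limit for the group's range. Chance alone flags about 1 in 20 groups of normally distributed values. CPM levels need not be so distributed, so that the 7 flags cannot be set against that rate. In distal normal tissue, mouse 37 was apart for Isg15, at 1165 CPM with the next at 162, and for Ms4a4b, at 3138 CPM with the next at 1993, and mouse 27 for Ccl5, at 29919 CPM with the next at 19283. In Relapse-free lungs, mouse 35 was apart for Isg15, at 140 CPM with the next at 20.4. In MET, mouse 37 was apart for Cd8a, at 1010.1 CPM with the next at 442, mouse 32 for Fos, at 1148 CPM with the next at 589, and mouse 31 for Ly6c2, at 3948 CPM with the next at 1906.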

How the results depend on the processing

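The differences in the share of T cells between Primary and MET core and between distal normal tissue and core kept their direction and passed with each sample left out, at 16.9 to 20.2 and 7.97 to 11.3 points. With 5 or more T cells per sample they were 18.6 and 12.7 points. In cells of 1000 or more UMIs they were 20.2 and 17.2 points and no longer passed (exact permutation tests, adjusted p = 0.35 and 0.4). With the fewer samples left, the exact permutation p cannot go below 0.0286, so that neither could pass after adjustment. Counted among CD8 T cells they reversed, at −5.28 and −6.77 points, as did distal normal tissue against MET at −2.39. Among immune cells, distal normal tissue against MET was −1.26, margin against core 1.75 and Normal against distal normal tissue −1.27 points. Margin against core was 0.451 points for all CD8 T cells (added after seeing the data) and 0.0157 without the margin of mouse 33, with a range of −4.32 to 0.0157 over samples left out. Normal against Pre-MET was −1.16 points at 1000 or more UMIs, and Normal against distal normal tissue went from 6.03 to 3.00 with 5 or more T cells (p = 0.625, exact). Normal against Relapse-free was 0.753 points at 1000 or more UMIs and −4.06 to −2.23 with samples left out. The ranges were 1.33 to 3.91 for distal normal tissue against MET, 5.28 to 6.86 for Normal against distal normal tissue and −7.25 to −6.04 for Normal against Pre-MET. The causes were not tested.

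Paired by mouse, distal normal tissue against core was 9.20 points and lost its call after adjustment over the paired comparisons alone. Margin against core was 0.366 points, with the core higher in 1 of 5 mice. Distal normal tissue against MET was 2.63 points, with MET higher in 5 of 7 mice. With mouse as a block in the expression fit, 1 gene (Fos) was called in distal normal tissue against core, and 0 in distal normal tissue against MET and in margin against core. In the same mice without the block 0 were called in each.

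Against 0 called genes, Primary against core gave 20 with DESeq2 (17 higher in cores), 106 without a filter, 5 with a minimum count of 20, 8 with 5 or more cells and 13 at 1000 or more UMIs. Normal against distal normal tissue gave 16 with DESeq2, 2 with DESeq2's size factors, 2 without a filter, 2 with a minimum count of 20, 8 with 20 or more cells, 17 with 5 or more, 21 at 1000 or more UMIs and 20 in a fit on both statuses alone. Distal normal tissue against MET gave 1 with 20 or more cells and 1 at 1000 or more UMIs, margin against core 1 and distal normal tissue against core 2 at 1000 or more UMIs. Normal against Relapse-free gave 1 without a filter, 1 with 20 or more cells and 3 at 1000 or more UMIs. With samples left out, Primary against core ranged from 0 to 9 (9 without core mouse 36, 1 without core mouse 37). Normal against distal normal tissue ranged from 0 to 14 (14, 1 and 2 without distal normal mice 17, 27 and 34) and distal normal tissue against core from 0 to 1 (without distal normal mouse 37). The rest stayed at 0.

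Ms4a4b between Primary and core passed with DESeq2 (adjusted p = 0.0274), without a filter (0.0197), with a minimum count of 20 (0.0364) and with 5 or more cells (0.00581). Fos there passed with DESeq2, 5 or more cells and 1000 or more UMIs (0.00568 to 0.0446), and Txnip with DESeq2, 5 or more cells and without core mouse 36 (0.0338 to 0.0446). Between Normal and distal normal tissue Cep85 passed under 5 alternatives (lowest 0.00289, at 1000 or more UMIs) and with 3 samples left out in turn, and Isg15 with DESeq2 (0.0163). Ifit3 passed between distal normal tissue and core at 1000 or more UMIs (0.0334). Pre-MET sums were absent from the fits with 20 or more cells and at 1000 or more UMIs, and a batch term could not be estimated for contrasts with Normal, Pre-MET or Primary. In the self-test at most 33.3% of 2-fold changes were recovered, and the lowest floor of a single sum was 9.01 CPM.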
